A study of Mus musculus with 5 samples.

Results

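The loss of guide RNAs between the plasmid pool and day 5, the earliest time point of a CRISPR screen in cultured embryonic stem (ES) cells of the mouse, is described here for every gene of the library. The comparison takes in 1682 of 1682 genes and 3 of 5 libraries: plasmid library 1, plasmid library 2 and the library of transduced cells at day 5. Of 17820 guides, the 15336 with at least 30 reads in both plasmid libraries were kept. These were 14443 guides to genes, 4 to 10 per gene with a median of 9, and 893 of 1000 non-targeting guides. Each guide's value was the log2 ratio of its scaled CPM (counts per 1e6 reads) at day 5 to the mean of both plasmid libraries, with 1 added to both sides, and a gene's value was the median over its guides. A log2 value of -1 means 50.0% of the plasmid share of reads, and the SD beside a gene median is over its guides.

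The plasmid libraries are labelled as untreated maxipreps of the guide pool, replicates 1 and 2. They carry the same cell type and genotype labels as the cell libraries although their titles name a maxiprep, a preparation of plasmid DNA. The day 5 cells have the genotype label Ainv15(iNgn2 Tubb3::GFP), a mouse ES line, and were infected with the lentiviral pool and kept in ES medium with 50 ng/µL Zeocin, the drug used to select transduced cells. By the titles the days run from transduction, but by the treatment protocol day 5 follows the start of selection, so "day 5" is used as a name. There was 1 library at day 5 and 1 each at days 8 and 12, and the labels do not say whether these are serial samples of 1 culture. Guide counts hold no expression values, so the ES cell label cannot be checked against marker genes here.

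In a pooled CRISPR screen each cell carries a guide RNA that leads the Cas9 nuclease to a site in 1 gene, where faulty repair of the cut can inactivate the gene. Cells that stop dividing or die after losing a gene leave fewer copies of its guides, and the guides of genes needed in every dividing cell are the ones generally known to go early. Non-targeting guides match no gene and are the usual control. A guide's share of reads does not tell dead cells from slowly dividing ones, nor a loss before selection from a loss after it.

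The guides of the gene with the lowest and of the gene with the highest day 5 median are shown first, because every statement below rests on how far such guides agree. G and C are in capitals, since guide values moved with GC content as described further on. Med14, on chromosome X, encodes the backbone subunit of Mediator, the complex that links DNA-bound factors to RNA polymerase II. Its 10 kept guides follow from lowest to highest.
Med14 guide TFMouse_07138: tGtCGGCGCtCCCaaCaGCt
Med14 guide TFMouse_07132: aGtGtGttGGCtttaaatGG
Med14 guide TFMouse_07131: ttatatGCaCaCaGtCCCGG
Med14 guide TFMouse_07137: GGtGaaGGCtataaGtGtGt
Med14 guide TFMouse_07133: CaGtCCCGGaGGatGtGtGt
Med14 guide TFMouse_07134: tGGtCaGCaaCattCtGaaG
Med14 guide TFMouse_07135: ataCtaaCaGGttCttGGGG
Med14 guide TFMouse_07140: GCaCCaCCaattGCaCCGCC
Med14 guide TFMouse_07136: GCaattGGtGGtGCGCtGGG
Med14 guide TFMouse_07139: GtCCCaGGCGGtGCaattGG

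The first of these had 316 and 99 reads in plasmid libraries 1 and 2 and 6 reads at day 5, a log2 ratio of -3.62. The last had 350 and 111 reads in the plasmid libraries and 97 at day 5, a log2 ratio of 0.02. So 9 of 10 Med14 guides lay at or below -1 and 1 did not move. The guides are not fully separate probes of the gene: 3 of the 10 share a run of at least 12 bases with another Med14 guide on either strand. Over all genes the same held for 31.2% of the kept guides, and for 35.5% of the guides of genes at or below -1.

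Trp53, on chromosome 11, encodes p53, the stress-activated factor that halts or kills cells with damaged DNA. Its 9 kept guides follow from lowest to highest value.
Trp53 guide TFMouse_13970: GGGCaaCtatGGCttCCaCC
Trp53 guide TFMouse_13962: CaaGaaGtCaCaGCaCatGa
Trp53 guide TFMouse_13965: tGCCatGGaGGaGtCaCaGt
Trp53 guide TFMouse_13964: GaaaatGtCtCCtGGCtCaG
Trp53 guide TFMouse_13966: CaGaataGCttattGaGGGG
Trp53 guide TFMouse_13969: ataaGCCtGaaaatGtCtCC
Trp53 guide TFMouse_13961: GaaGtCaCaGCaCatGaCGG
Trp53 guide TFMouse_13968: CCtGGCtCaGaGGGaGCtCG
Trp53 guide TFMouse_13967: CGGaCaCGGCtCCCaGCtGG

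The lowest Trp53 guide went from 276 and 92 plasmid reads to 225 reads at day 5, and the highest from 251 and 89 to 497 reads. After scaling these were 2.89 and 6.80 times the plasmid value, and every Trp53 guide had a higher share in the cells than in the plasmid pool. Of these guides, 4 share a run of at least 12 bases with another Trp53 guide.

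The non-targeting guides at both ends of their range are shown for comparison, the 4 lowest and then the 4 highest.
Non-targeting guide TFMouse_17172: tttttaGaCCtaattCGCGC
Non-targeting guide TFMouse_17069: CaatatCtaaGCGCtaaCGa
Non-targeting guide TFMouse_17596: atCGatattGataaaCGCGa
Non-targeting guide TFMouse_16970: GattCattatCGGCataCGG
Non-targeting guide TFMouse_17431: CaatatGCaCGtaGCCtCGt
Non-targeting guide TFMouse_17505: CtCGatGCCaCGGaaGGCGG
Non-targeting guide TFMouse_17515: tGaGCCGGtGCGCtCtCGGt
Non-targeting guide TFMouse_17779: aGaCtCGtGtGCCaCGaGGa

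The lowest of these 8 had 125 and 49 plasmid reads and 6 at day 5, a log2 ratio of -2.46. The highest had 156 and 54 plasmid reads and 178 at day 5, a log2 ratio of 1.98. The 4 lowest hold 7 to 9 G and C bases of 20, and the 4 highest hold 10 to 14. The printed letters read 5′ to 3′ as the DNA strand that carries NGG, the motif that Cas9 needs beside its site. Of 126 guide sequences found in RefSeq promoter windows, 122 were followed there by NGG. In these windows 0 non-targeting guides were found.

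The libraries held 3541896, 1350234 and 1063071 reads for plasmid 1, plasmid 2 and day 5. A kept guide had a median of 178, 68 and 53 reads in them. Only 3 kept gene guides had no read at day 5, where 3 reads, the limit that a count of 0 allows, are 2.82 CPM. Gene medians of plasmid library 2 over plasmid library 1 had an SD of 0.12 and ranged from -0.42 to 0.41, so 0 of 1682 genes (0.00%) lay at or beyond 1 in size. At day 5 the SD of the gene medians was 0.49. Reads are amplified copies and not separate cells, and intervals and floors cover counting error only.

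At day 5, 106 genes had a median at or below -1 (6.30% of 1682) and 14 of these lay at or below -2. In the other direction 1 gene, Trp53, lay at or above 1 (0.0595%), and 27 genes lay between 0.5 and 1. With 1 library these are sizes in the libraries compared, with no test between conditions. The change was thus lopsided, with many genes far below 0 and 1 gene far above it. The median over all genes was 0.0077. Together the 106 genes held 5.56% of reads in plasmid library 1 (95% Wilson interval 5.54 to 5.59%), 5.55% in plasmid library 2 (5.51 to 5.59%) and 2.28% at day 5 (2.26 to 2.31%). Their guides were no rarer in the plasmid pool: the median over genes of mean reads per guide in plasmid library 1 was 219 for them and 220 for the other genes. Just inside the limit lay Gtf3c2 (-1.01) and Gtf2h3 (-1.004), and just outside it Brf1 (-0.9998), Brca2 (-0.9991) and Ercc2 (-0.99).

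Of the 106 genes, 69 kept a median at or below -1 under every alternative in which they could be scored, and 37 lost it under at least 1. Without plasmid library 1 the genes Gtf2e2 (-0.87), Etv5 (-0.91), Gtf2h3 (-0.94) and Gm14391 (-0.94) lay above the limit, and without plasmid library 2 the genes Gtf3c4 (-0.92), Cdc5l (-0.93) and Xab2 (-0.97). With a minimum of 100 reads Polr3k (-0.70), Sin3a (-0.81), Polr2a (-0.84), Hist1h2bp (-0.90), Sap18 (-0.92), Ehmt1 (-0.92), Gtf3c4 (-0.99) and Alyref (-0.997) lay above it. A pseudocount of 5 and the GC correction moved 21 and 16 genes above it. Membership at or below -2 also depended on the pseudocount. With a pseudocount of 5 Smarca5 (-1.93), Snapc1 (-1.80), Ruvbl1 (-1.72) and Gtf2f2 (-1.64), among others, lay above -2. Polr2g (-2.30), Med14 (-2.21) and Mcm2 (-2.01) stayed below it.

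**Figure D1:**
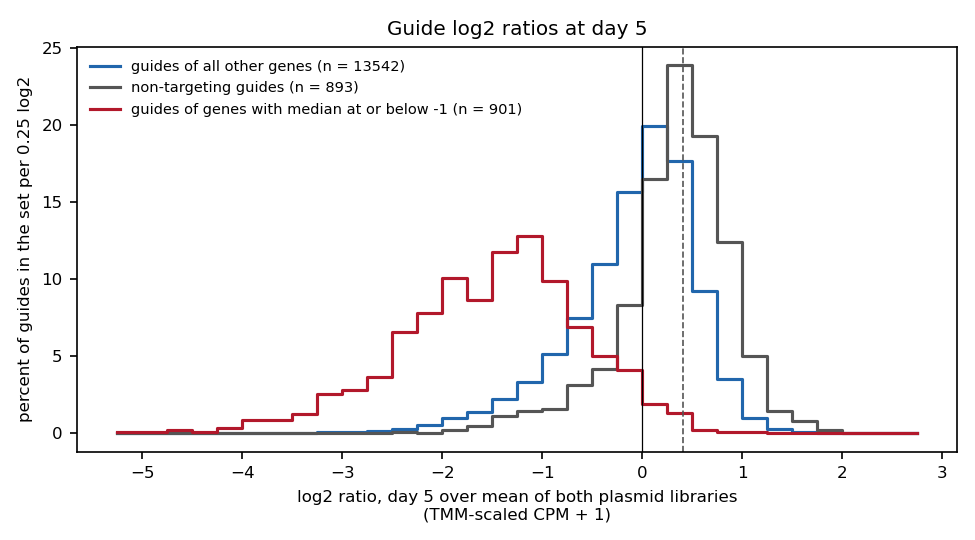
Distribution of single-guide log2 ratios (x axis, day 5 over the mean of both plasmid libraries, scaled CPM plus 1) as the percent of each set in steps of 0.25 (y axis), for guides of the 106 genes at or below -1, of all other genes and for non-targeting guides. The dashed line is the non-targeting median of 0.41. The first set was chosen on these values, and its lower position is a description.

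The choice of the 106 genes by their median at or below -1 already places about 50.0% or more of each gene's guides there, so the counts below only describe how evenly the guides lay. All kept guides lay below 0 in 77 of the 106 genes, all lay at or below -1 in 8, and 29 genes had at least 1 guide at or above 0. The SD over the guides of a gene had a median of 0.85 among the 106 genes, with a range of 0.24 to 1.81, and a median of 0.53 among the other genes. Of 901 guides to the 106 genes, 70.5% lay at or below -1 and 80.7% lay below the 5th percentile of the non-targeting guides. For the guides of the other genes, chosen by the same limit, the second share was 15.1%. The 9 guides of Polr1c, a subunit shared by RNA polymerases I and III, were the tightest set, from -2.68 to -1.85. Those of Hist1h2bp, a histone H2B gene with many near-identical copies whose values are therefore uncertain, ran from -4.71 to -0.01.

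RNA polymerase II, the enzyme that transcribes protein-coding genes, was the function with the lowest day 5 median among the lists of at least 5 genes. Its 11 subunits in the library had a median of -1.62, so that 32.4% of the plasmid share was left, and 9 of 11 lay at or below -1 against 6.30% of all genes. Over single guides 64 of 93 (68.8%) lay at or below -1. The same list had a median of -0.06 for plasmid library 2 over 1. The lowest subunit was Polr2g, which helps to form the stalk of the enzyme: its 7 guides had 1535 and 538 reads in plasmid libraries 1 and 2 and 66 at day 5. Its median was -2.52 ± 0.56 (SD, 7 guides), and all 7 guides lay at or below -2.05. Polr2c, an assembly subunit, had 1800, 641 and 110 reads and a median of -2.29 ± 0.70 (8 guides). Both genes were thus low at day 5 with every guide.

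The other subunits followed the same direction with more scatter. Polr2h, shared by all 3 nuclear polymerases, had a median of -2.33 over 5 guides. Polr2e (-1.88), Polr2b (-1.85), Polr2d (-1.62), Polr2j (-1.61) and Polr2i (-1.45) also lay below -1 at the gene level. The largest, catalytic subunit, Polr2a, lay only at -1.03 ± 0.84 (10 guides), with 1815, 735 and 287 reads in plasmid 1, plasmid 2 and day 5 and 5 of 10 guides at or below -1. Polr2f (-0.97) and Polr2k (-0.38) were the subunits outside the limit. The order within the enzyme therefore did not put the catalytic subunits lowest, and the SDs over guides of neighbouring subunits overlap.

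RNA polymerases I and III make ribosomal RNA and small RNAs such as tRNAs. With their own factors and nucleolar proteins they formed the second lowest list, with a median of -1.01 over 26 genes and 14 of 26 at or below -1. Polr1c, shared by both enzymes, was lowest, with 2046, 935 and 132 reads in plasmid 1, plasmid 2 and day 5 and a median of -2.24 ± 0.24 (9 guides). Polr1b, the second largest polymerase I subunit, had 2395, 945 and 163 reads and a median of -2.04 ± 0.59 (10 guides). All guides of both genes lay at or below -1. Polr1a, the largest polymerase I subunit, lay at -1.55 ± 0.97 (8 guides). Other polymerase I subunits did not pass the limit: Polr1d, also shared with polymerase III, lay at -0.63, Polr1e at -0.66 and Znrd1 at -0.71.

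Polymerase III itself was less even. Its largest subunit, Polr3a, had 1872, 819 and 188 reads and a median of -2.10 ± 1.38 (9 guides), from -4.50 to -0.58. Polr3k lay at -1.57, Polr3c at -1.24, Polr3b at -1.14 and Polr3e at -1.12. Polr3d (-0.65) and Polr3f (-0.34) lay above -1. The polymerase III factors TFIIIA (Gtf3a, -1.35) and the TFIIIC subunits Gtf3c3 (-1.27), Gtf3c4 (-1.01) and Gtf3c2 (-1.01) passed the limit, while Gtf3c1 (-0.85) and Gtf3c5 (-0.12) did not. Of the polymerase I promoter factors, Taf1b lay at -1.17, Taf1c at -0.75 and Ubtf at -0.47.

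The general factors that place polymerase II at promoters came next. Of 19 genes 7 lay at or below -1, and the list had a median of -0.89. Gtf2f2, the small subunit of TFIIF, had 2336, 843 and 262 reads and a median of -2.05 ± 0.99 (9 guides). Gtf2b, which is TFIIB, had 1380, 480 and 149 reads and a median of -1.84 ± 0.78 (8 guides). The partner subunits of TFIIF were not alike at day 5, as Gtf2f1, its large subunit, lay at -0.35 ± 0.71 (9 guides). For TFIIE Gtf2e2 lay at -1.08 ± 0.99 (8 guides) and Gtf2e1 at -0.62 ± 0.88 (10 guides), with SDs over guides that overlap. The TFIIH subunits Gtf2h1 (-1.21), Gtf2h2 (-1.19) and Gtf2h3 (-1.004) passed the limit, and its helicases Ercc2 (-0.99) and Ercc3 (-0.78) did not. TBP, the TATA-binding protein, lay at -0.93 ± 0.84 (8 guides). Among TBP-associated factors, 2 of 10 passed the limit, Taf13 (-1.47) and Taf5 (-1.05), and the list median was -0.72.

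Mediator was split. Of its 17 subunits 4 lay at or below -1 and the median was -0.72. Med14, with 2136, 742 and 179 reads in plasmid 1, plasmid 2 and day 5, had the lowest median of any gene at -2.57 ± 1.13 (10 guides). Smarca5 (-2.55) and Polr2g (-2.52) lay close to it, and the order of these genes depended on the processing. Smarca5 was lowest with a pseudocount of 0.5. Polr2g was lowest with a pseudocount of 5, without plasmid library 2 and with the mean over guides. With a minimum of 100 reads the lowest gene was Polr1b. The next Mediator subunits, Med20 (-1.47), Med8 (-1.16) and Med26 (-1.02), were all more than 1 log2 unit above Med14. Med12, Med13 and Med1 lay at -0.14, 0.03 and -0.14. SNAPc, which starts transcription of small nuclear RNA genes, had a similar split: Snapc1 (2549, 1018 and 228 reads) lay at -2.30 ± 0.88 (9 guides), Snapc5 at -1.48, Snapc3 at -0.79, Snapc2 at -0.78 and Snapc4 at -0.27.

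Factors that act on polymerase II after it has started were nearer to 0 at day 5. Of 27 elongation and termination genes 1 lay at or below -1, a share of 3.70% beside 6.30% for all genes, and the list median was -0.27. That gene was Ssrp1 (-1.14), a subunit of the histone chaperone FACT, whose partner Supt16 lay at -0.89. Ctr9 (-0.97), of the PAF complex, and Ell (-0.87) followed. The pausing factors lay higher: Supt5 at -0.31, Nelfcd at -0.34, Nelfb at -0.28, Nelfa at -0.41 and Nelfe at 0.0041. Past the limit were thus 9 of 11 genes of the enzyme and 7 of 19 general initiation factors, against 1 of 27 of these later factors. The contrast rests on the limit and on which genes are listed. Ctr9, Supt16 and Ell lay near the initiation list median of -0.89, while members such as Tcea3 (0.59) and Ell3 (0.17) lay above 0. Of the 27 later factors 20 lay below 0, and no difference between these lists was tested.

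**Figure D2:**
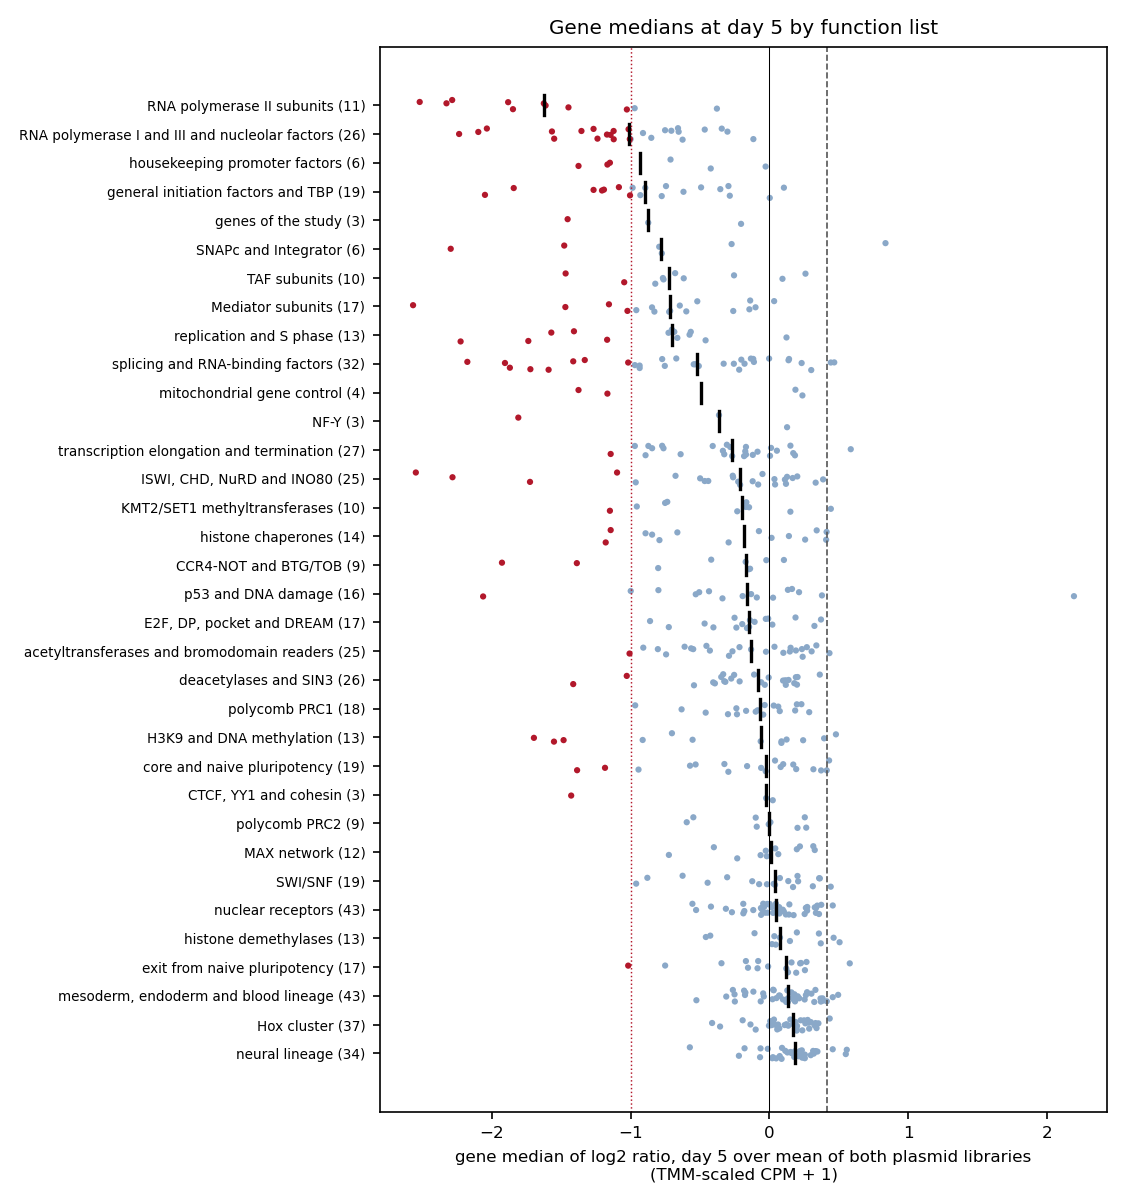
Gene medians at day 5 (x axis, log2 ratio over the plasmid mean) for 34 function lists (y axis, number of genes in brackets), sorted by list median. Each point is a gene, black bars are list medians, red points lie at or below -1, and the dashed line is the non-targeting median. Polymerase II subunits sit at the top at -1.62, and the lineage and Hox lists sit to the right of 0.

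Replication genes were low as a group with a few far out. Of 13 genes 5 lay at or below -1 and the median was -0.70. The MCM2-7 ring is the helicase that opens DNA at replication forks. Mcm2 had 1551, 546 and 113 reads in plasmid 1, plasmid 2 and day 5 and a median of -2.22 ± 0.94 (7 guides). Mcm6 lay at -1.74, Mcm7 at -1.57 with all 8 guides at or below -1, Mcm4 at -1.17, Mcm5 at -0.70 and Mcm3 at -0.57. These 6 proteins form 1 ring, and their day 5 medians spanned more than 1 log2 unit. Rfc1, of the clamp loader, lay at -1.41.

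DNA damage and repair genes were mixed, with a list median of -0.16 over 16 genes. Brca2, a mediator of recombination repair, lay at -0.9991, just outside the limit. Brca1, of the same repair pathway, lay at -0.80, the Brca1 partner Bard1 at -0.53 and the damage kinase Atm at 0.03. Trp53 stood at the other end of the same list at 2.19.

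Splicing and RNA-binding genes had a median of -0.52, with 8 of 32 at or below -1. The lowest was Sf1, the branch point binding protein, with 1549, 617 and 137 reads and a median of -2.18 ± 1.21 (9 guides). Snrpd1 (-1.90) and Snrpb (-1.72) encode proteins of the Sm ring of the spliceosome. Srsf3 (-1.87) and Srsf1 (-1.33) encode SR splicing factors, and the remaining members past the limit were Rbm39 (-1.59), Sfpq (-1.41) and Cdc5l (-1.02). Other SR genes lay apart from these: Srsf2 at -0.94, Srsf5 at -0.18, Srsf9 at -0.20 and Srsf6 at 0.44. In the CCR4-NOT complex, which shortens poly(A) tails, the subunit genes Cnot3 (2497, 877 and 238 reads, -1.93 ± 0.91, 10 guides) and Cnot2 (-1.39) passed the limit. The deadenylase genes Cnot8 (-0.80), Cnot7 (-0.42), Cnot6 (-0.17) and Cnot6l (-0.02), some of which come in closely related pairs, did not.

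Chromatin remodelling held few but very low genes. Of 25 genes of the ISWI, CHD, NuRD and INO80 list 4 lay at or below -1, while the median was -0.21. Smarca5, the ISWI motor Snf2h, had 1369, 483 and 129 reads and a median of -2.55 ± 1.11 (8 guides), the second lowest of all genes. Its relative Smarca1 lay at -0.47. The AAA+ proteins Ruvbl1 (1436, 522 and 118 reads, -2.28 ± 0.95, 9 guides) and Ruvbl2 (-1.72 ± 0.59, 10 guides), which work as 1 ring in INO80 and other machines, were both low. Chd4, the NuRD motor, lay at -1.10.

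Silencing genes of the H3K9 list behaved similarly, with 3 of 13 past the limit and a median of -0.06. They were Trim28 (-1.70), the corepressor of KRAB zinc finger proteins, Ehmt1 (-1.55), a histone H3K9 methyltransferase, and Cbx3 (-1.48), an HP1 protein. Ehmt2, which works as a dimer with Ehmt1, lay at 0.09. The DNA methyltransferase genes Dnmt1 (0.39), Dnmt3a (0.24) and Dnmt3l (0.48) lay above 0.

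Further lists had few members past the limit, at shares near the 6.30% of all genes in the larger ones. These were Sin3a (-1.41) and Sap18 (-1.03) in 26 deacetylase and SIN3 genes (7.69%), Kat7 (-1.01) in 25 acetyltransferase and bromodomain genes (4.00%), Hcfc1 (-1.15) in 10 KMT2/SET1 genes, and Hmgb2 (-1.18) of the histone chaperone list, which also holds Ssrp1. Ctcf, the insulator protein, lay at -1.43 ± 0.86 (10 guides) and Yy1 at 0.02. Of the NF-Y subunits Nfya lay at -1.81 (-0.95 with a minimum of 1 read, which ends the call), Nfyb at -0.36 and Nfyc at 0.13. The promoter factors of housekeeping genes Gabpa (-1.38), Nrf1 (-1.17) and Hcfc1 made up 3 of 6 genes of their list.

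Several chromatin and growth lists had no gene at or below -1 at day 5. No gene passed the limit in SWI/SNF (0 of 19, median 0.04), PRC1 (0 of 18, -0.06), PRC2 (0 of 9, -0.0051), the MAX network (0 of 12, 0.01), the E2F and DREAM list (0 of 17, -0.15) or the histone demethylases (0 of 13, 0.08). Their lowest members were Pbrm1 (-0.96), Pcgf6 (-0.97), Suz12 (-0.60), Max (-0.72), Rbbp4 (-0.86) and Kdm2a (-0.46). Of 34 lists, 10 had no member past the limit and 20 had a share of members past it above 6.30%. Both counts depend on list length. In a short list 1 gene already exceeds that share, as with 1 of 3 in NF-Y (33.3%) and 1 of 10 in KMT2/SET1 (10.0%). With so few genes, 0 of 9, 0 of 12 or 0 of 13 is not set apart from a share of 6.30%. Lists overlap and their genes were put together with earlier results of these data known, so these counts describe the lists and are not independent of the data.

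The pluripotency factors that hold ES cells in their state gave 2 of 19 genes at or below -1 and a median of -0.03. That share was 10.5%, beside 6.30% of all genes. Pou5f1 (Oct4) had 1179, 469 and 137 reads and a median of -1.39 ± 0.24 (5 guides), with all 5 guides between -1.68 and -1.01. Nanog had 1846, 767 and 265 reads and lay at -1.18 ± 0.59 (10 guides). Stat3 (-0.94) came next, and Sox2, the partner of Oct4, lay at -0.03 ± 0.50 (8 guides). Klf4 (-0.53), Tfcp2l1 (-0.57), Esrrb (0.37) and Zfp42 (0.04) lay on both sides of 0. Among 17 factors of the exit from naive pluripotency, only Etv5 (-1.02) passed the limit, a share of 5.88% and near that of all genes. The BTB zinc finger genes named in the study's title were at -1.45 ± 0.90 (Zbtb11, 1816, 682 and 213 reads, 8 guides) and -0.87 ± 1.18 (Zfp131, 2088, 772 and 328 reads, 8 guides), and Zbtb10 lay at -0.20 ± 0.59 (8 guides). The study may have chosen these genes on this screen, so their position is no independent result.

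Genes of other lineages, which ES cells are not known to need, were used as a second comparison set besides the non-targeting guides. None of the 114 genes of the neural, mesoderm, endoderm and blood, and Hox lists lay at or below -1, and their medians ran from -0.57 (Sox10) to 0.56, with a median of 0.16. Nuclear receptor genes gave 0 of 43 and a median of 0.05. These lists lay slightly above the median of all genes.

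Of the 106 genes, 75 belonged to the 587 genes in a list (12.8%) and 31 to the 1095 genes outside the lists (2.83%). The lowest of the 31 was Btf3 (1109, 460 and 110 reads, -1.88 ± 0.95, 6 guides), which binds nascent proteins at the ribosome. It is 1 of the 20 lowest genes, and the other genes of this paragraph were picked after their values were seen. Ddb1 (-1.80), an adaptor of a ubiquitin ligase, Phf5a (-1.77), a splicing protein, Espl1 (-1.71), the separase that cuts cohesin, and Alyref (-1.64), an mRNA export factor, followed. Abt1 (-1.65), Cebpz (-1.60), Ddx54 (-1.57), Pdcd11 (-1.24) and Nifk (-1.10) are known nucleolar or ribosome assembly proteins. Phb2 (-1.38) is a mitochondrial prohibitin and Tsg101 (-1.37) sorts membrane proteins. Ssxb9 (-1.45), Sp140 (-1.31), Gm14391 (-1.24) and Hist1h2bp (-1.79) belong to families with close copies. Guide cut sites were not analysed here, so their guides may cut more than 1 place and their values are uncertain.

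**Figure D3:**
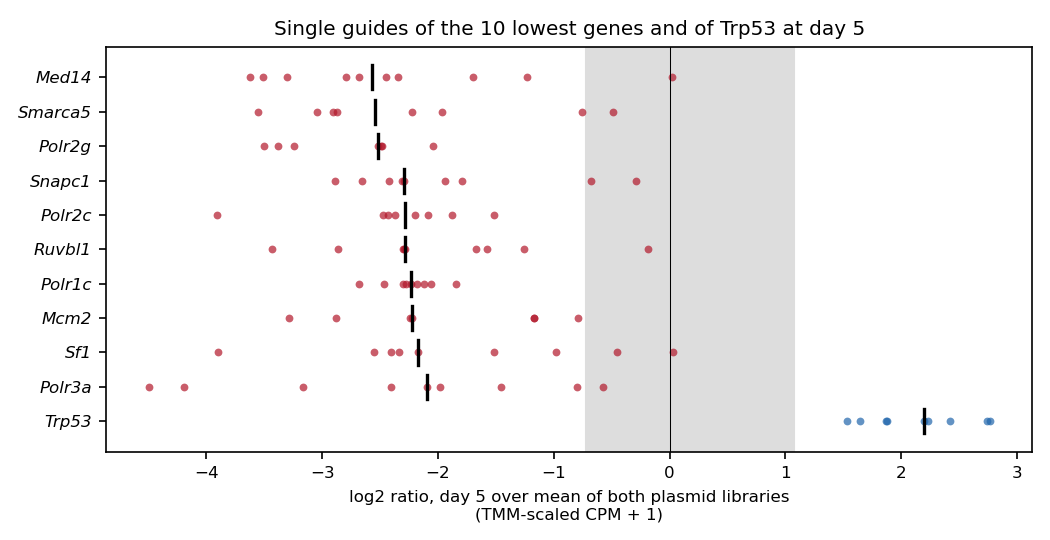
Single-guide log2 ratios at day 5 (x axis) for the 10 lowest genes with at least 6 kept guides and for Trp53 (y axis). Points are guides, black bars are gene medians, and the grey band spans the 5th to 95th percentile of the non-targeting guides, -0.72 to 1.07. All 9 Polr1c points lie left of the band and all 9 Trp53 points right of it.

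On the upper side Trp53 stood apart. Its guides had 2463 and 975 reads in plasmid libraries 1 and 2 and 3521 at day 5, and its median was 2.19 ± 0.45 (9 guides), a 4.57-fold higher scaled value. Its share of all reads, over all its guides, was 0.0719% (95% Wilson interval 0.0692 to 0.0748%) and 0.0740% (0.0695 to 0.0787%) in the plasmid libraries and 0.346% (0.335 to 0.357%) at day 5. The day 5 share lay above both plasmid shares by far more than counting error. The next genes were Ints12 (0.84 ± 0.82, 9 guides), an Integrator subunit, Trip6 (0.84 ± 0.62, 7 guides), Fubp1 (0.81 ± 0.44, 6 guides) and Zfp36l1 (0.69 ± 0.43, 8 guides). Hist1h1e (0.67), Prickle3 (0.62), Emx2 (0.61) and Tcf15 (0.59) were also among the 10 highest. None of these genes besides Trp53 reached 1.

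The non-targeting guides did not stay at 0. Their median at day 5 was 0.41 with an SD over guides of 0.56, and 710 of 893 (79.5%) lay above 0. Their middle 50% lay between 0.09 and 0.67, and the whole range was -2.46 to 1.98. For the gene guides the median was -0.02, with 48.6% above 0. The share of all reads on non-targeting guides was 5.38% in plasmid library 1 (95% Wilson interval 5.36 to 5.40%), 5.59% in plasmid library 2 (5.55 to 5.63%) and 7.36% at day 5 (7.31 to 7.41%). Between the plasmid libraries the non-targeting median was 0.06. Only 73 genes (4.34%) had a day 5 median above the non-targeting median, and 0 kept non-targeting guides had no read at day 5.

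The non-targeting guides also lay above the guides of lineage and Hox genes. The latter, 989 guides, had a median of 0.16 (SD 0.55), which is 0.26 below the non-targeting median. Of the non-targeting guides 3.36% lay at or below -1, of the lineage and Hox guides 4.95%, and of all gene guides 12.9%. At or above 1 lay 7.50% of the non-targeting guides and 1.26% of the gene guides. A gene at 0 therefore sat 0.41 below the non-targeting guides, and measured from their median 221 genes would lie at or below -1. The cause of this gap was not tested.

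Guide values moved with GC content in every set. Non-targeting guides with up to 8 G and C bases had a median of -0.23 (62 guides), those with 9 to 10 had 0.24 (288 guides), with 11 to 12 had 0.43 (352 guides), with 13 to 14 had 0.62 (162 guides) and with 15 or more had 0.54 (29 guides). Lineage and Hox guides went from -0.33 to 0.37 over the same classes, and guides of the genes that were not at or below -1 from -0.49 to 0.33. The guides of the 106 genes went from -1.51 to -1.12. They held a median of 10 G and C bases, against 11 for the other genes and for the non-targeting guides and 12 for lineage and Hox guides. In each class the non-targeting guides had the highest median and the guides of the 106 genes the lowest. After subtraction of a GC trend 97 genes lay at or below -1, of which 90 were among the 106.

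**Figure D4:**
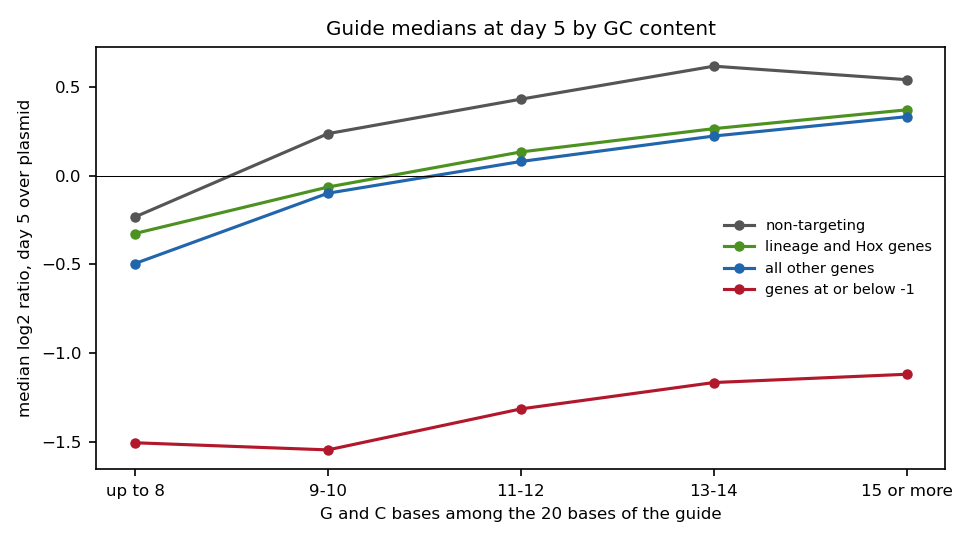
Median guide log2 ratio at day 5 (y axis) by the number of G and C bases among the 20 bases of the guide (x axis) for 4 sets: non-targeting guides, guides of lineage and Hox genes, guides of all genes not at or below -1, and guides of the 106 genes at or below -1. The second set is part of the third. All 4 lines are higher on the right than on the left.

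Guide values also differed by the last base of the guide, next to the NGG motif. In the 106 genes the guide median was -1.03 for a final C and -1.45, -1.63 and -1.64 for G, A and T. Among non-targeting guides the medians were 0.32 for C, 0.47 for G, 0.25 for A and 0.50 for T. So a final C went with the highest values in the 106 genes and not in the controls, and the difference between these patterns was not tested.

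Tests of single guides depended strongly on the spread that was assumed. With edgeR's quasi-likelihood test, whose spread comes from the plasmid pair alone with 1 residual degree of freedom, 2603 guides (17.0%) were called lower and 1495 (9.75%) higher at a Benjamini-Hochberg adjusted p of 0.05. It also called 312 of the 893 non-targeting guides (34.9%), 38 lower and 274 higher. With 1 dispersion for all guides taken from the non-targeting guides (edgeR likelihood ratio test), 594 guides (3.87%) were called lower and 28 (0.183%) higher, among them 4 and 11 non-targeting guides. The dispersion from the non-targeting guides was estimated with all 3 libraries as 1 group. The shift of these guides at day 5 therefore counts in it as spread, while guides were tested against 0. The adjusted p-values of both tests compare the day 5 library with the plasmid libraries, not conditions.

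Under this second spread 321 of 901 guides (35.6%) of the 106 genes and 269 of 13542 guides (1.99%) of the other genes fell. The 106 genes were chosen on the same values, so this is a description. All 7 Polr2g guides, 8 of 9 Polr1c guides, 7 of 10 Med14 guides, 7 of 9 Snapc1 guides and 6 of 8 Smarca5 guides fell. Of the Pou5f1 guides 0 of 5 did, although all lay at or below -1, and of the Nanog guides 3 of 10. All 9 Trp53 guides rose and made up 9 of the 17 gene guides called higher.

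Days 8 and 12 share the plasmid libraries with day 5, so the 3 comparisons are not independent, and their values are set side by side only. At or below -1 lay 204 genes (12.1%) at day 8 and 265 (15.8%) at day 12. Over the 106 genes the medians were -1.42, -2.23 and -2.52 at days 5, 8 and 12, and 99 of them were lower at day 12 than at day 5. The exceptions were Sf1, Ssxb9, Gabpa, Ythdc1, Cops2, Polr3b and Polr3e. For Polr3b the medians were -1.14, -0.47 and -0.70 at days 5, 8 and 12, and for Polr3e -1.12, -0.60 and -0.81. Med14 stayed level, at -2.57, -2.68 and -2.57. The non-targeting median was 0.41, 0.54 and 0.58.

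The lists differed in how much of their day 12 value was already present at day 5. Polymerase II subunits went from -1.62 to -2.19 and -2.47. The median of the 6 housekeeping promoter factors was level at -0.93, -0.92 and -0.93, but single members moved both ways. Nrf1 went from -1.17 to -2.10 and -2.08, and Hcfc1 from -1.15 to -1.76 and -2.15. Gabpa went from -1.38 to -0.73 and -1.19. Mediator went from -0.72 to -1.10 and -1.75, replication from -0.70 to -1.48 and -1.89, and DNA damage genes from -0.16 to -0.74 and -1.36. These are single libraries, and no difference between lists was tested. Some genes that ended very low were not yet past the limit at day 5. Ttf2, a termination factor, lay at -0.76, -3.09 and -4.83 at days 5, 8 and 12. Max, the partner of MYC, lay at -0.72, -2.99 and -4.04, and Kmt2b, a histone H3K4 methyltransferase, at -0.96, -2.67 and -3.41.

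**Figure D5:**
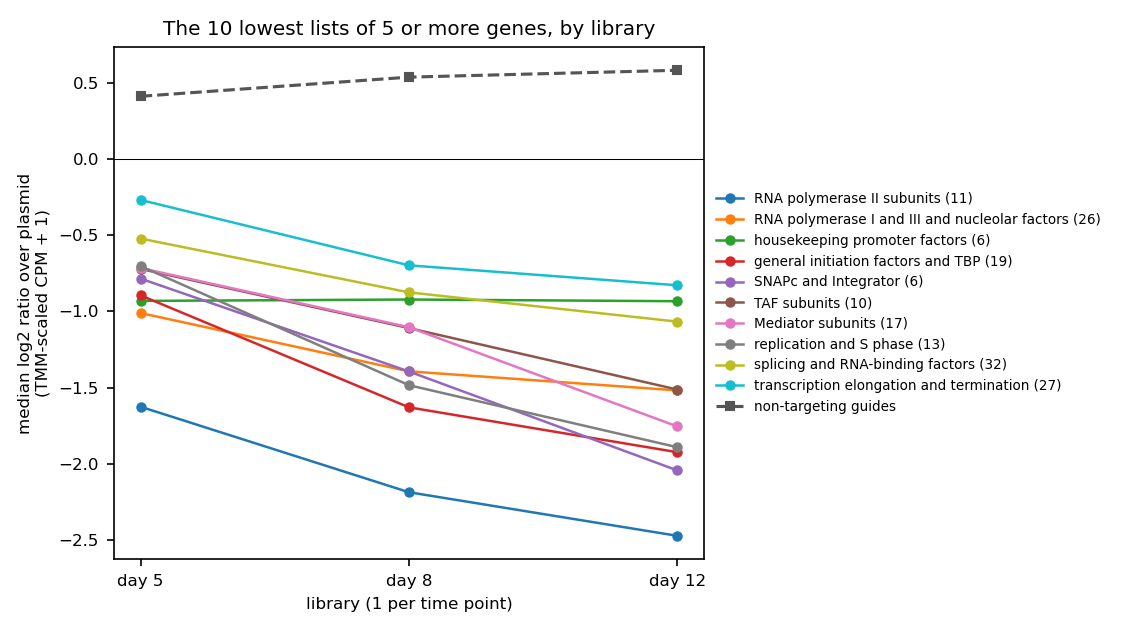
List medians of gene log2 ratios (y axis, over the plasmid mean) in the single libraries of days 5, 8 and 12 (x axis) for the 10 lists of at least 5 genes with the lowest day 5 medians, and the non-targeting guides (dashed). All comparisons share the plasmid libraries. Of these lists the polymerase II subunits are lowest in each library, and the non-targeting guides lie at 0.41, 0.54 and 0.58.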

How the data were processed

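Each deposited file holds 1 raw count of reads for each guide, per the file headers, and its values are whole numbers with unequal totals. The submitters' processing notes name cutadapt, Bowtie, featureCounts and the build mm10, with no version. How reads were matched to guides is not given in the sources used here, and guide cut sites were not analysed here.

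Counts were scaled with TMM factors (edgeR 4.0.16, R 4.3.3) to CPM, with a pseudocount of 1 and a minimum of 30 reads in both plasmid libraries. Genes were summarised by the median over guides and called by size, at or below -1 or at or above 1. Single guides were tested with edgeR's quasi-likelihood test on 3 libraries (Benjamini-Hochberg threshold 0.05). Its p-values measure only the spread between the plasmid libraries, which may be technical. These differed by more than sampling noise (chi-square 2.21 times its degrees of freedom) and counted as 2. Depth was 1063071 to 3541896 reads. The scripts were tested on simulated data.

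Genes were named if they had 1 of the 20 lowest or 10 highest medians among genes with at least 6 guides, or were members of 34 lists or 1 of the study's 3 genes, and some of these are not reported here. The members and lists were chosen with earlier results of these data known. Symbols came from a RefSeq table of the same build (GRCm38.p6): 1661 matched directly and 21 by an older name. Alternatives covered the scaling, centring, pseudocount, read minimum, each plasmid library left out, the mean over guides, a GC correction, DESeq2 1.42.0 and the dispersion.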

Additional observations from a re-analysis of the deposited data

Results flagged for a closer look

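In some genes the day 5 and day 12 libraries lay on opposite sides of the plasmid value, with 1 of the values at least 1 in size. These comparisons share the plasmid libraries, and the difference was not tested. The side of 0 rests on the centring: measured from the non-targeting median of each library, the 6 genes that were low at day 12 lie below 0 at both days. Near 0 at day 5 and low at day 12 were Smarcb1, a SWI/SNF subunit (0.075 and -1.86), Atm (0.026 and -1.70), Nelfe (0.0041 and -1.33), Kdm2b (0.20 and -1.32), Apex1 (0.16 and -1.29) and Tbpl1 (0.0023 and -1.24). Slightly below 0 at day 5 and high at day 12 were Kmt2d, a histone H3K4 methyltransferase (-0.17 and 2.13), Ncoa3 (-0.27 and 2.00), Kmt2c (-0.23 and 1.49), Rarg (-0.12 and 1.44) and Sall4 (-0.060 and 1.28). At day 5 these 11 genes all lay between -0.27 and 0.20, inside the range of the lineage and Hox genes in that library.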

How the results depend on the processing

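Some medians nearer to 0 changed sign under at least 1 alternative. The Hox list (0.17) had a lowest value of -0.24, and the DNA damage list (-0.16) a highest value of 0.08. Polr2k (-0.38) reached 0.02 and Nfyc (0.13) reached -0.28. The polymerase II list stayed between -2.04 and -1.23, and Trp53 between 1.78 and 2.24. Of 1682 genes, 106 lay at or below -1, and 85 to 121 did under the other alternatives except that centring on the non-targeting median gave 221 and a minimum of 100 reads, which left 794 genes, gave 61. The minimum of 100 reads also put 2 genes at or above 1 (Trp53 and Srsf6, 1.03) in place of 1. Without plasmid replicate 1 and without replicate 2 there were 114 and 114 genes, holding 102 and 103 of the 106, and the non-targeting median was 0.38 and 0.43. The mean over non-targeting guides was 0.33 in place of the median of 0.41. Lists with a median at or below -1 numbered 2, but 9 after centring on the non-targeting guides, 1 with a pseudocount of 5, with a minimum of 1 read and after GC correction, and 3 with a minimum of 100 reads. The last were polymerase II, replication and the CTCF list (-1.62), without polymerases I and III (-0.84), and the TAF median was then -0.07. The CTCF list has only 3 genes, and Yy1 among them could not be scored with that minimum. Polymerase II subunits were the lowest list of at least 5 genes except with the minimum of 100 reads, where replication genes were (-1.27). Guides called lower and higher numbered 2603 and 1495, but 698 and 109 with DESeq2, 594 and 28 with the dispersion of the non-targeting guides, and 894 and 465 with the minimum of 100 reads. The causes were not tested, other than that the last alternative tests fewer guides. No paired analysis was possible because only the plasmid libraries carry replicate numbers. A median of 53 reads per guide at day 5 limits single guides.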
